A study of Mus musculus with 8 samples.

Results

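The nuclear subunits of oxidative phosphorylation were examined in microarrays of tissue labelled as brown adipose tissue (BAT), from Co mice and Pg mice. Members were taken by name from the array's annotation: genes whose names start with Nduf, Uqcr, Atp5, Cox4, Cox5, Cox6, Cox7 or Cox8, together with *Sdha*, *Sdhb*, *Sdhc*, *Sdhd* and *Cycs*, leaving out assembly factors named Ndufaf and pseudogenes. This gave 85 of the 37074 gene names on the array, measured by 132 probes. They were 36 genes of complex I, 4 of complex II, 8 of complex III, 19 of complex IV and 15 of complex V, the cytochrome c gene *Cycs*, and *Atp5s* and *Atp5sl*, which match by name but encode no subunit. *Ndufa4* and *Ndufa4l2* were counted in complex IV, where the *Ndufa4* protein is now placed. The probe with the highest mean signal stood for each gene.

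All mice were male C57BL/6J mice, 12 weeks old. The 4 Co mice were given 100 μL of saline intravenously, and the 4 Pg mice were given sonicated *Porphyromonas gingivalis* in the same volume, at a dose printed as 108 CFU in the labels, where the study's methods have an exponent. The tissue labelled BAT was collected 18 h later, and the RNA of each mouse was hybridized to 1 Agilent single-color array. The killed bacteria model endotoxemia and not a live infection, and whole tissue was used, so a lower signal from fewer cells of a type and one from less RNA per cell cannot be told apart. The label is in doubt: *Ucp1*, the defining gene of brown adipocytes, was at background on all 8 arrays. All 12 skeletal muscle markers, 11 of 15 brown adipocyte markers and all 10 general adipocyte markers were well above it on all of them. The 11 include *Cox7a1* and *Cox8b*, forms that muscle has too. Whether the signals below come from brown adipocytes or from muscle therefore cannot be told apart. The arrays lay on 1 slide with the Co samples in one row and the Pg samples in the other, so the row and the group cannot be told apart.

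Oxidative phosphorylation is the process by which mitochondria turn the energy of food into ATP. Complexes I and II pass electrons from NADH and succinate to ubiquinone, complex III passes them to cytochrome c, and complex IV passes them to oxygen. Complexes I, III and IV pump protons out of the matrix, and complex V, the ATP synthase, makes ATP as protons flow back. A few subunits are encoded in mitochondrial DNA and the others, which are described here, in the nucleus. Brown adipocytes are packed with mitochondria, and their uncoupling protein UCP1 lets protons return without making ATP, which gives heat.

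Values are log2 signals after quantile normalization between the 8 arrays, and differences are Pg minus Co on that log2 scale. Pg and Co were compared with limma, two-sided, over all 33819 probes well above background on at least 4 arrays, with Benjamini-Hochberg adjustment. A DEG had an adjusted p under 0.1 and a fold change above 1.5. The members were readily measured, since 83 of 85 were well above background on all 8 arrays. *Cox7b2*, a testis form, was so on 4 Co arrays and 1 Pg array, and *Cox8c*, another testis form, on none, so 84 members were tested.

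No member was a DEG, against 1.61% of all probes tested. *Ndufb3* was the only member with an adjusted p under 0.1, against 7.82% of all probes. At an unadjusted p under 0.05 there were 8 members, 7 higher and 1 lower in Pg mice, and 22.8% of all probes passed that limit. The differences of the 83 members above background on all 8 arrays ran from -0.15 to 0.30. The median over the 84 tested was 0.037, and the median over all probes tested was -0.040. Replicates were tight, with a median SD of 0.053 in Co mice and 0.060 in Pg mice (n = 4 each). The 95% interval of the difference therefore lay within a 1.5-fold change in either direction for 83 of the 84 members, all but *Cox7b2*, and within a 1.25-fold change for 80, all but *Cox7b2*, *Ndufb3*, *Cox6a1* and *Cox6c*.

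**Figure D1:**
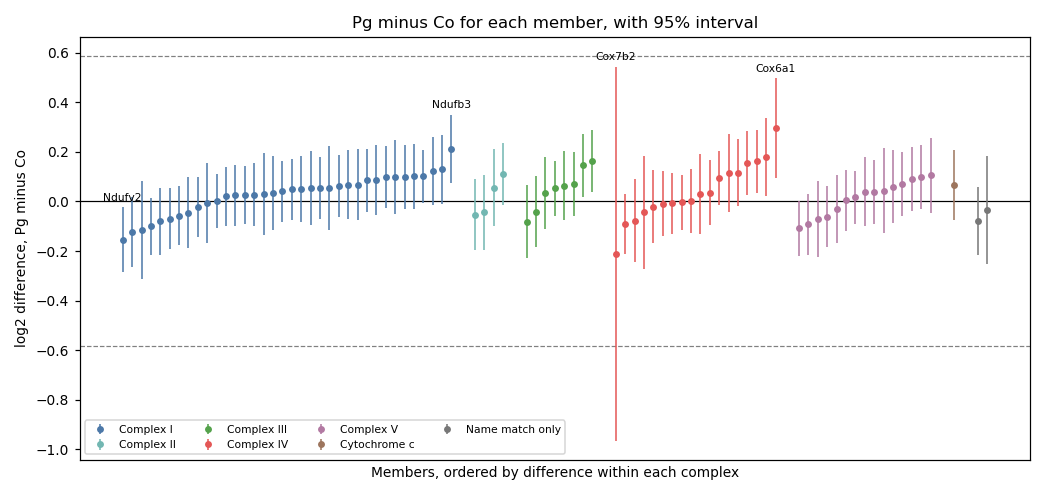
Difference between Pg and Co mice for each of the 84 members tested, in log2 units, as points with the 95% interval from limma, colored by complex and ordered by difference within a complex. The dashed lines mark a 1.5-fold change, and the interval of *Cox7b2* is the only one to cross either of them. *Cox7b2* passed the filter through the Co arrays, so its point is not read as a result.

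The direction of the members as a group depended on how the arrays were scaled. With quantile normalization 55 of 84 members were higher in Pg mice, whereas with each array scaled to its 75th percentile 22 of 84 were, with a median of -0.045 beside -0.020 over all probes. Without normalization between arrays the members' median was 0.0049 and that of all probes 0.030. Across these, 2 other background corrections and the authors' own log2 table, 22 members were higher in Pg mice each time they were measured, 26 were lower each time, and 36 changed sign. Bright probes that are not members had a median of 0.0091 with quantile normalization (1768 probes with a mean log2 signal over 14), beside 0.042 for the 78 members above the same level. Where a member whose value is given below changed sign with the scaling, this is stated beside it.

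**Figure D2:**
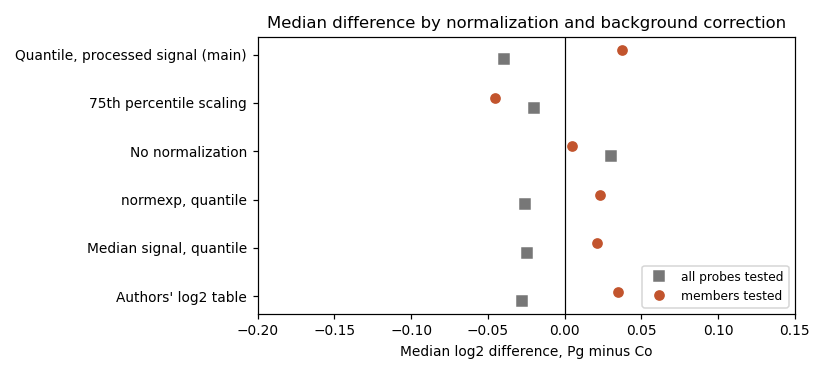
Median log2 difference, Pg minus Co, of the members (circles) and of all probes tested (squares) under 6 ways of normalization and background correction. The members' median lies above 0 in 5 of them and at -0.045 with scaling to the 75th percentile, and every median lies within 0.05 of 0.

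The 4 Co values and the 4 Pg values did not overlap for 15 members. Of these, 12 were higher in Pg mice, where 4.83% of all probes were separated in that direction, and 3 were lower, where 11.0% of all probes were. The 12 were *Ndufb3*, *Ndufb9*, *Ndufa13* (at -0.034 with scaling to the 75th percentile), *Uqcrb*, *Uqcrq*, *Uqcrfs1*, *Cox4i1*, *Cox6a1*, *Cox6a2*, *Cox6c*, *Cox7a1* and *Atp5a1*, and the 3 were *Ndufv1*, *Ndufv2* and *Atp5f1*. Among the 1768 other probes with a mean log2 signal over 14, 10.9% were separated upward and 8.65% downward, beside 15.4% and 3.85% of the 78 members above that level. With scaling to the 75th percentile, 2 of the 84 members were separated upward and 10 downward, where 4.60% and 9.72% of all probes were.

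**Figure D3:**
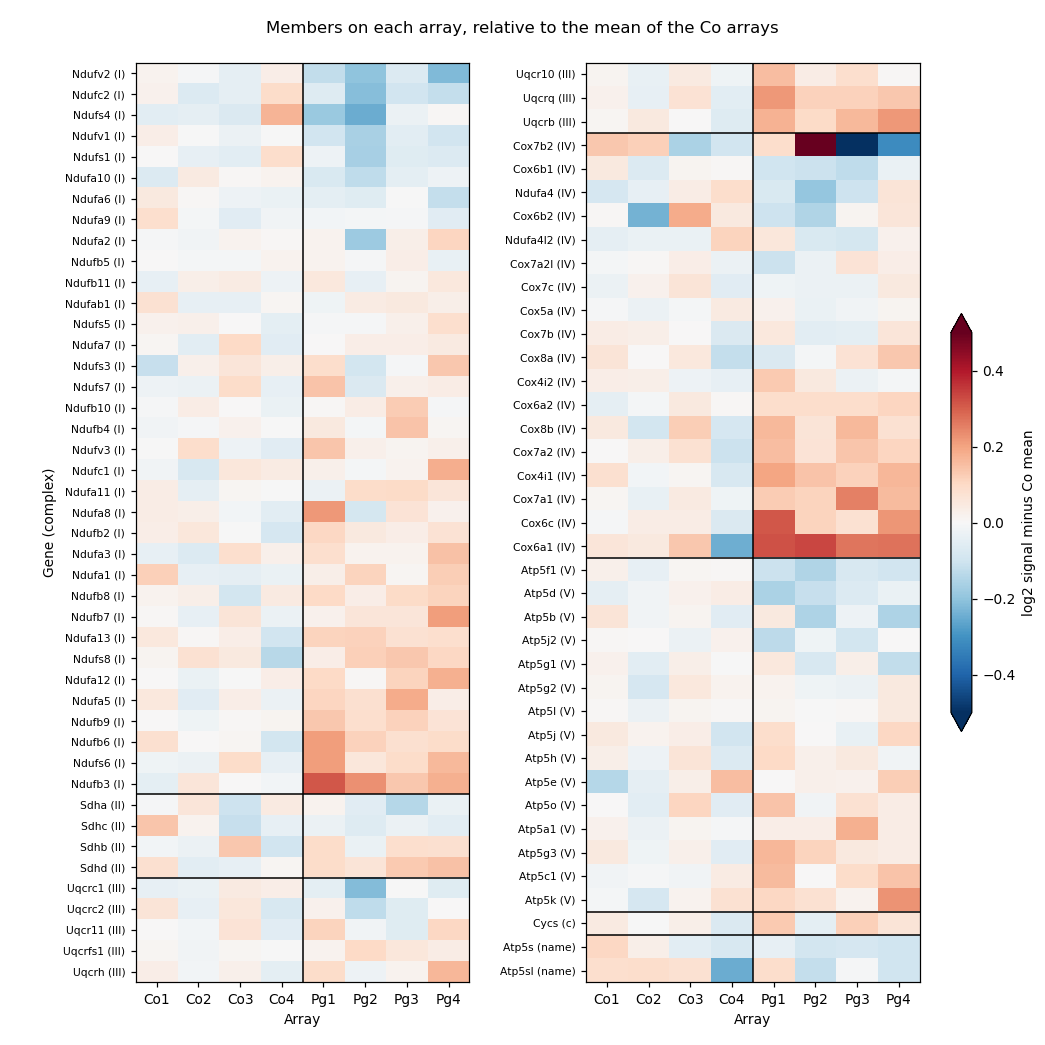
Log2 signal of 83 of the 84 tested members on each array, minus its mean over the 4 Co arrays, with genes in rows grouped by complex (in parentheses) and arrays in columns. Colors run from -0.5 (blue) to 0.5 (red). The fields are pale for nearly all members. *Cox6a1* is red on the Pg arrays, *Ndufb3* and *Cox6c* are so less evenly, and the testis form *Cox7b2* scatters within the Pg group.

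Complex I, NADH dehydrogenase, takes electrons from NADH in its matrix arm and pumps protons in its membrane arm. Its 36 genes had a median difference of 0.045, with 26 above 0 and 10 below, and 12 were above 0 when arrays were scaled to their 75th percentile. *Ndufb3*, an accessory subunit of the membrane arm, had values of 15.99, 16.10, 16.04 and 16.02 in Co mice and 16.35, 16.27, 16.17 and 16.21 in Pg mice. All 4 Pg values lay above all Co values. The difference was 0.21 (95% interval 0.076 to 0.35, 1.16-fold; limma adjusted p = 0.0972), and the adjusted p was 0.214 with normexp background correction and 0.453 in the authors' log2 table, where the difference was 0.088. It stayed under 0.1 in none of the 8 fits that left out 1 array, in which 0.00887% to 7.03% of all probes passed. *Ndufs6*, an accessory subunit near the iron-sulfur clusters, followed with 0.13 (limma adjusted p = 0.246), and its groups overlapped.

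The lowest difference of complex I belonged to *Ndufv2*, an iron-sulfur subunit of the module that oxidizes NADH. Its values were 16.37, 16.35, 16.30 and 16.38 in Co mice and 16.23, 16.15, 16.28 and 16.13 in Pg mice, so every Pg value was below every Co value. The difference was -0.15 (95% interval -0.28 to -0.024; limma adjusted p = 0.162). The adjusted p was 0.0688 with normexp and 0.0947 in the authors' table. The mean over all *Ndufv2* probes differed by 0.032, with a dim probe (5.66 in Co mice) at 0.22 (limma adjusted p = 0.677). *Ndufv1*, which binds NADH and the flavin in the same module, was at -0.10 (limma adjusted p = 0.275), again without overlap between the groups, and *Ndufc2*, a membrane-arm subunit, at -0.12 with overlap (limma adjusted p = 0.275). Other complex I subunits on the list of core genes lay between -0.11 and 0.098. *Ndufs1*, the largest iron-sulfur subunit, was at -0.080, *Ndufs3*, which lies near the ubiquinone site, at 0.031, *Ndufs7* and *Ndufs8*, which carry the last clusters, at 0.033 and 0.098, and the accessory subunits *Ndufs4*, *Ndufa9*, *Ndufab1* and *Ndufb8* at -0.11, -0.022, 0.025 and 0.085. Of these, *Ndufs3* and *Ndufs7* were among the members that changed sign with the scaling, as were *Ndufab1* and *Ndufb8*. None of them had a limma adjusted p under 0.1.

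Complex II, succinate dehydrogenase, belongs to the citric acid cycle too, and all of its subunits are nuclear. *Sdha*, which binds the flavin, had a difference of -0.053 and *Sdhb*, the iron-sulfur subunit, one of 0.056. The membrane anchors *Sdhc* and *Sdhd* were at -0.044 and 0.11. The lowest limma adjusted p of the 4 was 0.275, for *Sdhd*, and all 4 intervals included 0. *Sdhb* was at -0.040 when arrays were scaled to their 75th percentile.

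Complex III passes electrons from ubiquinol to cytochrome c. Its 8 members had a median difference of 0.058, with 6 above 0 and 2 below, and 2 were above 0 when arrays were scaled to their 75th percentile. *Uqcrb*, a small subunit at the ubiquinone pocket, had values of 16.72, 16.76, 16.71 and 16.64 in Co mice and 16.88, 16.80, 16.87 and 16.92 in Pg mice, all above the Co values. Its difference was 0.16 (95% interval 0.039 to 0.29; limma adjusted p = 0.134), and 0.082 with scaling to the 75th percentile. The mean over its probes was at -0.080, with a dim probe at -0.45 whose Pg values were all lower. *Uqcrq*, another small subunit, was at 0.15 (limma adjusted p = 0.174), and at 0.0036 with scaling to the 75th percentile. The core proteins *Uqcrc1* and *Uqcrc2* were the 2 that were lower, at -0.082 and -0.041 (limma adjusted p = 0.478 and 0.728). *Uqcrfs1*, the Rieske iron-sulfur protein, was at 0.053, and at -0.0022 under 75th percentile scaling. *Cyc1*, which encodes cytochrome c1 of the same complex but lies outside the naming rule, was at 0.11 (limma adjusted p = 0.28). The mobile carrier *Cycs* was at 0.066 (limma adjusted p = 0.556) and at -0.037 with scaling to the 75th percentile.

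Complex IV, cytochrome c oxidase, has a core encoded in mitochondrial DNA and a shell of nuclear subunits, several of which exist as tissue-specific forms. The 18 members tested had a median difference of 0.017, with 10 above 0 and 8 below, and 6 were above 0 under 75th percentile scaling. *Cox6a1*, the form of subunit VIa found in most tissues, had the largest difference of all members, at 0.30 (95% interval 0.096 to 0.50, 1.23-fold). Its values were 15.46, 15.45, 15.54 and 15.16 in Co mice and 15.72, 15.74, 15.67 and 15.67 in Pg mice. The groups did not overlap, and Co4 stood below the other Co arrays. The limma adjusted p was 0.108. It was 0.0436 with normexp, 0.0457 with the median signal and 0.0678 in the authors' table, and without Co4 the difference was 0.22.

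*Cox6c*, which has no tissue forms, was at 0.18 (limma adjusted p = 0.175), with Pg values of 17.16, 16.96, 16.92 and 17.07 above Co values of 16.84, 16.89, 16.89 and 16.78, and at 0.080 with scaling to the 75th percentile. *Cox7a1*, the heart and muscle form of subunit VIIa that is also used as a marker of brown fat, had values of 17.76, 17.72, 17.80 and 17.73 in Co mice and 17.88, 17.86, 18.00 and 17.91 in Pg mice. The groups were separate, with a difference of 0.16 (limma adjusted p = 0.141) that shrank to 0.011 with scaling to the 75th percentile. *Cox4i1*, the common form of subunit IV, the largest nuclear subunit, was at 0.16 (limma adjusted p = 0.155), and at 0.037 with scaling to the 75th percentile. *Cox6b1* and *Ndufa4*, 2 subunits on the outer side of the complex, were lowest among the members above background on all arrays, at -0.092 and -0.077 (limma adjusted p = 0.337 and 0.561). *Cox5a*, a matrix-side subunit, was at -0.0028. *Cox7b2*, well above background on only 1 Pg array, passed the filter through the Co arrays, so no difference is given. Its values were 4.53, 4.52, 4.24 and 4.30 in Co mice and 4.49, 4.94, 3.24 and 4.08 in Pg mice, which overlap.

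**Figure D4:**
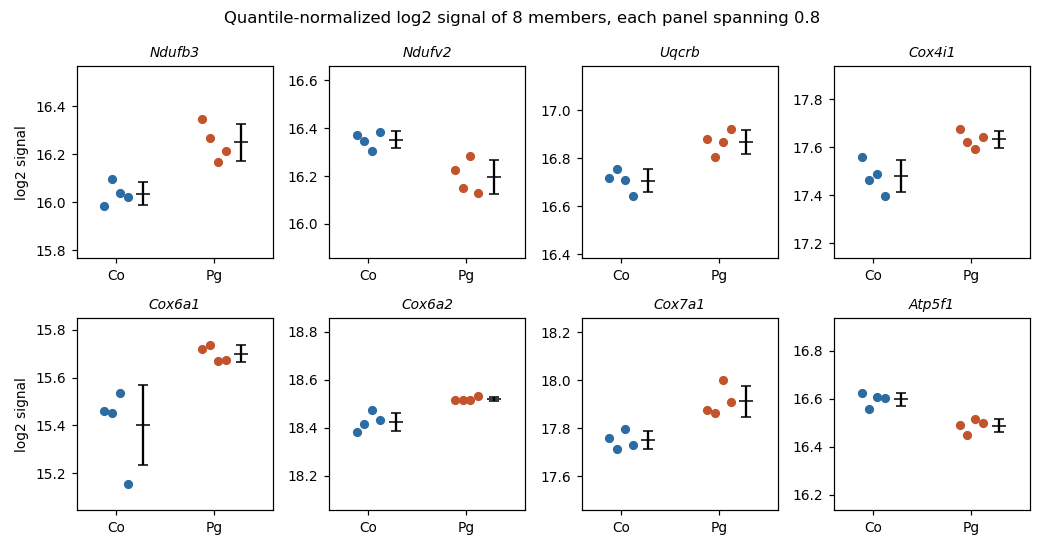
Quantile-normalized log2 signal of 8 members on each array, as points for Co (blue) and Pg (orange), with the mean and SD of each group (n = 4) as black marks. Each panel spans 0.8 log2 units. The groups are separate in all 8 panels, with Pg below Co for *Ndufv2* and *Atp5f1* and above Co for the other members, and Co4 is the low point of *Cox6a1*.

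Complex V, the ATP synthase, has a rotor, a catalytic head and a peripheral stalk that holds the head still. Its 15 members had a median difference of 0.039, with 10 above 0 and 5 below, and 1, *Atp5k*, was above 0 under 75th percentile scaling. *Atp5f1*, subunit b of the peripheral stalk, had values of 16.62, 16.56, 16.61 and 16.60 in Co mice and 16.49, 16.45, 16.51 and 16.50 in Pg mice. The Pg values were all lower, by 0.11 on average (95% interval -0.22 to 0.0022; limma adjusted p = 0.227). *Atp5d*, the δ subunit of the central stalk, was at -0.093, *Atp5c1*, the γ subunit that turns inside the head, at 0.098, and *Atp5k*, subunit e in the membrane, at 0.11. *Atp5c1* was at -0.011 with scaling to the 75th percentile. The head subunits *Atp5a1* (α) and *Atp5b* (β, the catalytic one) were at 0.070 and -0.070, and *Atp5e* (ε) and *Atp5o* (which joins the head to the stalk) at 0.043 and 0.060. *Atp5a1*, *Atp5e* and *Atp5o* were below 0 with scaling to the 75th percentile. The lowest limma adjusted p of complex V was that of *Atp5f1*. *Atp5s* and *Atp5sl*, which match the names only and carry the symbols *Dmac2l* and *Dmac2* in the reference, were at -0.078 and -0.035.

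Tissue forms of one subunit were compared as ratios within each array, which asks whether one form replaced another. The ratio was tested over the arrays with an exact permutation test, two-sided, whose smallest p with 4 arrays against 4 is 0.0286. Of 11 pairs, 3 reached that p, with an adjusted p of 0.105 over the pairs. The log2 ratio of *Cox6a2*, the heart and muscle form, to *Cox6a1* was 2.92, 2.96, 2.93 and 3.27 on the Co arrays and 2.79, 2.78, 2.85 and 2.86 on the Pg arrays. It was lower on every Pg array, by 0.20 on average (interval -0.42 to 0.0087, exact permutation p = 0.0286). The difference was -0.34 with scaling to the 75th percentile and -0.12 without Co4. The groups of this ratio did not overlap under any of the 6 ways of normalization and background correction, of which scaling to the 75th percentile and no normalization give the same ratio by construction. *Cox6a2* itself was at 0.094 with quantile normalization and at -0.085 with scaling to the 75th percentile. On 3 Pg arrays its quantile-normalized value was the same, 18.51, because the probe held the same rank there.

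The ratio of *Cox7a2l*, a factor that joins complexes III and IV into supercomplexes, to *Cox7a2*, the common form of subunit VIIa, was -0.55, -0.56, -0.58 and -0.46 in Co mice and -0.80, -0.64, -0.61 and -0.61 in Pg mice. Its difference was -0.13 (interval -0.25 to 0.0037, exact permutation p = 0.0286), and -0.12 with p = 0.0571 by the exact permutation test with scaling to the 75th percentile. It was -0.080 without Pg1 and -0.099 without Co4. None of the 3 ratios kept the p of 0.0286 in every comparison that left out 1 array. The ratio of *Cox4i2*, an oxygen-regulated form, to *Cox4i1* differed by -0.12 (interval -0.20 to -0.034, exact permutation p = 0.0286) but by -0.0081 with scaling to the 75th percentile. For *Cox7a2* against *Cox7a1*, the difference was -0.045 (interval -0.15 to 0.061), and 0.060 under 75th percentile scaling. With 1 array left out it ran from -0.074 (without Co4) to -0.023 (without Pg3). For *Cox8b*, the muscle and brown fat form, against *Cox8a* the difference was 0.084 (interval -0.086 to 0.25), and 0.0079 under 75th percentile scaling. It was 0.034 without Pg1 and 0.13 without Pg4. The *Atp5g1*, *Atp5g2* and *Atp5g3* genes encode the same mature c subunit of the rotor. *Atp5g3* against *Atp5g1* was at 0.12 (exact permutation p = 0.0857). It was at 0.17 with normexp and in the authors' table (exact permutation p = 0.0286 in both). *Atp5g2* against *Atp5g1* was at 0.034 (-0.012 without Pg4). *Atp5g3* against *Atp5g2* was at 0.087, and at 0.17 in the authors' table. The ratio with *Cox6b2* differed by 0.047, and by -0.0096 without Co2, and that with *Ndufa4l2* by 0.056, and by -0.024 with normexp. No value is given for the ratio with *Cox7b2*, whose sign turned when Pg3 was left out, and the pair with *Cox8c* was not tested. With the 4 replicate numbers as pairs, the exact p of the *Cox6a2* ratio was 0.125, the smallest that 4 pairs allow.

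Other probes of the members gave a second reading of 33 genes. Of 43 such probes tested, 25 had a negative difference, with a median of -0.020 beside 0.039 for the brightest probes of the same genes. The difference was below that of the brightest probe in 29 of 43 with quantile normalization and in 24 under 75th percentile scaling. The sign was opposite in 19 of 43. No other probe was a DEG, and 3 had an adjusted p under 0.1, all lower in Pg mice, where 6.00% of all probes passed in that direction. They target *Atp5b*, *Sdha* and *Atp5a1*. The *Atp5b* probe read 13.55, 13.54, 13.38 and 13.44 in Co mice and 13.21, 13.21, 13.18 and 13.03 in Pg mice, a difference of -0.32 (limma adjusted p = 0.0627). The *Sdha* probe read 13.32, 13.39, 13.38 and 13.42 in Co mice and 13.12, 13.07, 13.17 and 13.11 in Pg mice, a difference of -0.26 (limma adjusted p = 0.0573). The *Atp5a1* probe differed by -0.25 (limma adjusted p = 0.0723). Without normalization between arrays none of the 3 passed (limma adjusted p = 0.225, 0.212 and 0.244). The groups were separate for all 3, while the brightest probes of these genes were at -0.070, -0.053 and 0.070.

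The sequences below show what these probes hybridize to, in lower case throughout since no part of them is marked. The first 2 are the probes of *Atp5b* and *Sdha* whose Pg values were lower, the third is another *Atp5b* probe with a difference of -0.085 (limma adjusted p = 0.357), and the last 2 stand for *Cox4i1* and *Cox7a1*. Each has 60 bases and at least 1 reading frame without a stop codon. Positions are those of the array's annotation on mm9.
Atp5b, chr10:127521478-127522156, + strand, a span of 679 bases: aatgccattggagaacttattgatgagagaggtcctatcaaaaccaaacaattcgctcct
Sdha, chr13:74465756-74465815, - strand: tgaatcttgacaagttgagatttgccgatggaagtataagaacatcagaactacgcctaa
Atp5b, chr10:127526024-127526083, + strand: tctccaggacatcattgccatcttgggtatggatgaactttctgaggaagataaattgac
Cox4i1, chr8:123197924-123197983, + strand: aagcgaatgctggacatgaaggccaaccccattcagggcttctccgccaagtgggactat
Cox7a1, chr7:30970337-30970948, + strand, a span of 612 bases: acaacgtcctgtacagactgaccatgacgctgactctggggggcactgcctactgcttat
The spans of 679 and 612 bases are longer than the probe, so these probes join exons. Of the 41 other probes on the chromosome and strand of the brightest probe, the brightest one lay downstream in 31, and the other probe had the lower difference in 22 of these. It lay upstream in 10, and the other probe had the lower difference in 5.

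**Figure D5:**
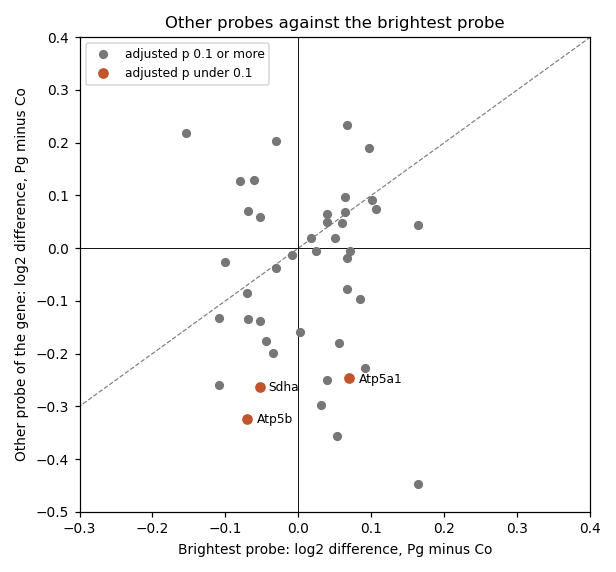
Log2 difference, Pg minus Co, of each other probe of a member (vertical axis) against that of the brightest probe of the same gene (horizontal axis), for 43 probes of 33 genes. The dashed line marks equal differences. The 3 probes with an adjusted p under 0.1, of *Atp5b*, *Sdha* and *Atp5a1*, lie between -0.32 and -0.25 on the vertical axis.

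The genes around the subunits were taken from fixed lists. Of the 11 subunits that the array holds from mitochondrial DNA, 6 had a positive and 5 a negative difference, with a median of 0.018 and none with an adjusted p under 0.1. Of 51 assembly factors of the complexes, 23 were higher and 28 lower, with a median of -0.0097. One of them passed, *Cox18*, which inserts a mitochondrially encoded subunit of complex IV into the membrane. Its values were 10.89, 10.88, 10.78 and 10.71 in Co mice and 11.06, 11.12, 11.14 and 11.06 in Pg mice, higher on every Pg array by 0.28 (limma adjusted p = 0.065, and 0.115 with scaling to the 75th percentile). The mean over all *Cox18* probes differed by 0.017 (limma adjusted p = 0.873). Of 13 citric acid cycle genes 5 were higher and 8 lower, with a median of -0.059, and of 26 tested genes of electron entry, ubiquinone synthesis and mitochondrial carriers 11 were higher and 15 lower, with a median of -0.025. No gene of these latter lists had an adjusted p under 0.1.

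Among 15 nuclear regulators of the subunits' transcription and of mitochondrial DNA, 8 were higher and 7 lower, with a median of 0.016. *Gabpb1*, a subunit of the GA-binding protein that drives many respiratory genes, had values of 9.52, 9.59, 9.88 and 9.81 in Co mice and 10.02, 9.98, 10.01 and 10.03 in Pg mice. It was higher on every Pg array, by 0.31 (limma adjusted p = 0.0994, and 0.133 with scaling to the 75th percentile). *Nrip1*, a corepressor of oxidative genes in fat, had values of 10.05, 10.19, 9.89 and 10.20 in Co mice and 9.66, 9.68, 9.82 and 9.73 in Pg mice, lower on every Pg array by 0.36 on average (limma adjusted p = 0.0702). With the mean over all probes of a gene, *Gabpb1* was at 0.12 and *Nrip1* at -0.20, and neither passed. The 3 calls among these lists were few beside 7.82% of all probes tested. *Ppargc1a*, the coactivator PGC-1α, was at -0.36 with SDs of 0.45 and 0.34 and overlapping groups, and *Tfam*, which packs and transcribes mitochondrial DNA, at -0.20 (limma adjusted p = 0.12).

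Short motifs of these regulators were searched on both strands of the promoter windows, from 250 bases before to 50 after the start of transcription, in RefSeq sequences of GRCm38.p6. Windows were found for 68 of the 83 subunit genes. The NRF1 core GCGCATGC was in 16.2% of them (11 genes), against 3.05% of all 27025 genes with a window. The GA-binding protein core CCGGAAG was in 23.5% (16 genes), against 9.93% of all genes. The YY1 motif AAGATGGCG was in 10.3%, against 1.64%, and the short site AAGGTCA of estrogen-related receptors in 11.8%, against 5.38%. With quantile normalization, 15 of the 16 genes with the GA-binding protein core had a positive difference and 32 of the 52 without it, with medians of 0.050 and 0.026. The counts were 9 of 11 and 38 of 57 for the NRF1 core, 4 of 7 and 43 of 61 for the YY1 motif, and 8 of 8 and 39 of 60 for the estrogen-related receptor site. These counts were not tested, and the members' direction depends on the scaling. With scaling to the 75th percentile, most genes with the GA-binding protein core and most with the estrogen-related receptor site were below 0, as were most members. A match describes the letters and not a bound site. The stretches below lie before the start of transcription, and capitals mark the motif. The first 2 genes carry the NRF1 core, read on the other strand, and the last 3 carry the GA-binding protein core, on the other strand in *Cox6a1*, whose difference was the largest.
Cycs, chr6:50566601-50566650, - strand: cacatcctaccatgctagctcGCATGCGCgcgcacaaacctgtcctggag
Sdhb, chr4:140961196-140961245, + strand: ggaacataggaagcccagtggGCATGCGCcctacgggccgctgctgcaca
Cox6a1, chr5:115348959-115349008, - strand: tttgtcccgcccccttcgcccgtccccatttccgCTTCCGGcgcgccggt
Uqcr11, chr10:80406860-80406909, - strand: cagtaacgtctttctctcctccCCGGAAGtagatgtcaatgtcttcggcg
Ndufs3, chr2:90904722-90904771, - strand: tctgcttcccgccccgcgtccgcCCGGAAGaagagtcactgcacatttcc

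The tissue label was set against its markers, and part of them go against it. Of 15 brown adipocyte markers, 11 were well above background on all 8 arrays, but *Ucp1*, *Elovl3*, *Slc27a2* and *Bmp8b* were not well above background on any array. All 10 general adipocyte markers and all 12 skeletal muscle fibre markers were well above background on all arrays. The summed muscle signal was 21.51 to 21.60 in Co mice and 21.48 to 21.61 in Pg mice on the log2 scale, with 3 markers higher, 9 lower and none called. The brown adipocyte sum was 19.38 to 19.52 and 19.51 to 19.59, with 6 of the 11 tested markers higher, 5 lower and none called. *Cox7a1* and *Cox8b* are among these markers, with means of 17.75 and 17.94 in Co mice. Both are members, so this sum is partly made of the members' own values. General adipocyte markers (8 higher, 2 lower, none called) summed to 17.34 to 17.43 and 17.24 to 17.54. Red blood cell markers (3 of 3 lower, none called) summed to 18.03 to 18.75 in Co mice and 16.89 to 18.82 in Pg mice. Macrophage markers (4 of 4 higher, none called) summed to 11.51 to 12.00 and 11.26 to 12.59, and neutrophil markers (3 of 3 higher, none called) to 9.10 to 9.41 and 9.16 to 11.26. Of 4 endothelial markers 2 had a positive and 2 a negative difference, with a median of -0.0083. *Kdr* was at 0.57 (limma adjusted p = 0.0573) and *Pecam1* at -0.20, both with separate groups, and none was a DEG, with sums of 12.78 to 13.13 and 13.09 to 13.23. Their part in the values of the members was not tested. The count of probes well above background ran from 34760 to 35831 over the Co arrays and from 31132 to 34063 over the Pg arrays, without overlap.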

How the data were processed

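The authors deposited the Agilent Feature Extraction 11.0.1.1 output of 8 single-color arrays (1 per mouse), with the Cy3 intensity of each spot background-subtracted and detrended but not normalized between arrays, and with marks per spot (other values, 0 or 1) for signal above background, outliers and saturation. They also deposited a table of quantile-normalized log2 values, used as an alternative, with fold changes and p-values that were not used. Outlier spots were left out, and signals of 56605 probes were quantile-normalized and put on the log2 scale with 1 as the lowest value. The comparison used limma 3.58.1 (lmFit, eBayes, two-sided) in R 4.3.3, and was tested on simulated data. Precision is limited by the 4 arrays in each group.

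The members and lists were chosen with earlier results of these data known. Named genes were fixed by rule: members with an adjusted p under 0.1, the 2 highest and 2 lowest differences of each complex among members above background on all 8 arrays, isoform pairs, core subunits, list genes with an adjusted p under 0.1 and genes that match by name only. Other named genes were chosen after their values were seen: members whose groups do not overlap, *Cyc1*, *Tfam*, *Ppargc1a*, *Kdr* and *Pecam1*. For 1 member, counted with the others, values are not reported here. All 85 members matched a RefSeq gene, 82 by accession. Alternatives were other scalings, background corrections and filters, the mean over a gene's probes, limma-trend, a replicate block and each array left out.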

Additional observations from a re-analysis of the deposited data

Results flagged for a closer look

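Of 168 groups of 4 arrays (84 members in 2 groups), 12 (7.14%) held 1 array far from the other arrays of its group. Chance gives about 1 in 20. Values are log2 signals. Co4 was the separate array for *Atp5sl* (13.09, others 13.41 to 13.42), *Ndufa4l2* (10.80, others 10.65 to 10.66) and *Ndufs4* (15.67, others 15.42 to 15.45). Co3 was so for *Ndufs6* (17.03, others 16.90 to 16.92) and *Ndufs7* (16.92, others 16.79 to 16.80), and Co1 for *Ndufa1* (16.38, others 16.21 to 16.23).

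Among the Pg arrays, Pg4 was the separate one for *Cox6a2* (18.53, the others all at 18.51), *Cox7c* (16.32, others 16.24 to 16.25) and *Ndufa9* (15.21, others 15.26). Pg3 was so for *Atp5a1* (17.86, others 17.71 to 17.72), Pg2 for *Sdhb* (17.22, others 17.34 to 17.35) and Pg1 for *Ndufv3* (16.50, others 16.37 to 16.38).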

How the results depend on the processing

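No member was a DEG under any alternative. The count of members with an adjusted p under 0.1 was 1 in the values reported. It was 0 with 75th percentile scaling (4.57% of all probes passed), without normalization (0.0858%), with a filter of at least 1 array (2.34%) and without a filter (2.24%). It was also 0 with the mean over probes (4.29% of all genes) and with any array left out (0 to 0, beside 0.00887% to 7.03% of all probes). It was 2 with normexp, with the median signal, in the authors' table (*Cox6a1* and *Ndufv2* in all 3) and with probes above background on all 8 arrays (*Cox6a1* and *Ndufb3*), where 10.2%, 9.06%, 6.11% and 10.3% of all probes passed. With limma-trend it was 10, where 10.3% of all probes passed, and of these 8 were higher (*Ndufb3*, *Ndufb9*, *Uqcrb*, *Uqcrq*, *Cox4i1*, *Cox6a1*, *Cox6c* and *Cox7a1*) and 2 lower (*Ndufv2* and *Atp5f1*). Without normalization 3 members had separate groups (2 higher and 1 lower, beside 5.09% and 4.34% of all probes). The members' median moved to -0.045 with 75th percentile scaling and 0.0049 without normalization, and ran from 0.023 (without Pg4, and likewise without Co4) to 0.051 (without Co3) with 1 array left out. Of the list genes, whose counts go with the same shares of all probes, 3 passed as reported, against 0 without normalization, 7 with normexp, 5 with the median signal, 5 in the authors' table, 5 above background on all arrays, 0 with a filter of at least 1 array (2.34% of all probes), 1 without a filter (2.24%), 15 with limma-trend and 0 to 4 with an array left out. From the authors' log2 values, the count of isoform ratios with an adjusted p under 0.1 was 4, against 0 as reported. They were *Cox6a2* to *Cox6a1*, *Cox7a2l* to *Cox7a2*, and *Atp5g3* to *Atp5g1* and to *Atp5g2*. *Cox6a2* was at -0.085 with 75th percentile scaling and at -0.035 without normalization. The mean over a gene's probes put *Uqcrb* at -0.080 and *Ndufv2* at 0.032. These means each include a dim probe, at -0.45 for *Uqcrb* and at 0.22 for *Ndufv2*. The cause of these moves was not tested. No spot was saturated, so leaving out saturated spots changes nothing.

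With the replicate number as a replicate block, 0 members and 0 list genes had an adjusted p under 0.1, as had 0 of the 33819 probes. The values do not settle whether the numbers pair the samples. Correlations between arrays ran from 0.986 to 0.994. The separate measure of pairing, which was not taken on whole signals, was 0.059, -0.027, -0.068 and 0.18 for same-numbered arrays. By it, the best match of Co1 was Pg1 and that of Co4 was Pg4, while Co2 matched Pg3 and Co3 matched Pg2.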
